A study of Mus musculus with 19 samples.

Results

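Gene expression was compared between ErbB2-driven mouse mammary tumours with and without a floxed integrin beta3 gene, Itgb3. The members were chosen by genotype alone: 4 of the 19 tumours of the series were labelled NIC itgb3 fl/fl, with the note beta 3 integrin KO, and 5 were labelled NIC WT and served as controls. Both groups carry the MMTV-NIC transgene, in which the mouse mammary tumour virus promoter makes activated ErbB2 and Cre recombinase from a single transcript, so that each epithelial cell with the oncogene also has the recombinase. By this design the deletion belongs to cells in which that promoter is active and spares other cells of the tumour; neither was measured here by cell type. Control tumours express the same oncogene and Cre with no floxed integrin allele named. The series also holds 4 tumours labelled NIC itgb1 fl/fl (Itgb1 knockout) and 6 tumours with both floxed genes (labelled double knockout), which are used here for the shared estimate of spread and for 1 comparison. All tumours were flash frozen at end burden. The ages, the number of animals and the exons flanked by loxP were not given, so a p-value reflects how much these particular samples vary, and some of that variation may be technical. Tumours are numbered within a group in the order of their records, and the numbers pair nothing.

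Integrins are receptors for the extracellular matrix made of an alpha and a beta chain. The beta3 chain pairs with alpha v, a receptor for vitronectin, fibronectin, osteopontin and other ligands that carry the RGD motif, and with alpha IIb, the fibrinogen receptor of platelets. In tumours alpha v beta3 is known from invasive cancer cells and from sprouting endothelium, and in ErbB2 tumours integrins are studied as partners of growth factor receptors.

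Each tumour gave 1 array, and all levels below are normalized log2 intensities as deposited, so a difference of 1 is a change by a factor of 2. The array medians were 4.41 to 4.48 in the Itgb3 knockouts and 4.32 to 4.46 in the controls. The upper quartiles were 6.35 to 6.36 in the Itgb3 knockouts and 6.37 to 6.38 in the controls and did not overlap. Levels of the epithelial adhesion gene Epcam were 11.21 to 11.33 in the knockouts and 11.22 to 11.52 in the controls, so both groups held the labelled epithelial tissue. Some tumours stood apart in their other cell types. Knockout tumour 2 had low collagen and other matrix genes, as in decorin (Dcn), at 3.46 against 7.17, 9.01 and 7.42 in the other knockouts. Knockout tumour 3 and control tumour 2 had high skeletal muscle genes, as in the muscle actin gene Acta1, at 9.17 and 9.97 against 4.89 to 6.10 in the remaining 7 tumours. In whole tumours, fewer cells of a type and less RNA per cell cannot be told apart.

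Itgb3 itself was lower in the tumours with the floxed gene. Its level was 6.34, 7.31, 6.97 and 7.40 in the 4 knockouts and 8.09, 8.23, 7.72, 8.16 and 8.41 in the 5 controls. The groups did not overlap, and knockout tumour 1 was the lowest of all 19 tumours. Itgb3 fell by 1.12 (SE 0.254, 95% interval −1.65 to −0.58, 2.17-fold). The exact two-sided permutation p over the 9 tumours was 0.00794, the smallest that the 126 splits of 4 and 5 tumours can give. In the fit over 14231 genes the limma adjusted p was 0.723. The 4 knockouts also lay below each tumour of the other genotypes, which ran from 7.90 to 8.98 in the Itgb1 knockouts and from 7.69 to 8.55 in the labelled double knockouts. The level in the labelled double knockouts thus goes against their label, and no direction is drawn for Itgb3 loss from that group. In the Itgb3 knockouts a level well above the intensity filter of 4.38 remained, and how much of it came from cells without Cre was not tested. The exons flanked by loxP were not given, so whether the probe set reads only them, in part or not at all is not known.

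The chains that pair with beta3 overlapped between the groups. The alpha v gene Itgav had 9.05, 8.33, 8.46 and 8.60 in the knockouts and 8.50, 8.53, 8.76, 8.66 and 9.13 in the controls, and these ranges overlapped (−0.11, 95% interval −0.48 to 0.27). The platelet alpha chain gene Itga2b lay near the filter in both groups, at 4.50, 4.73, 4.57 and 4.82 against 4.51, 4.38, 4.74, 4.53 and 4.01 (0.22, 95% interval −0.07 to 0.51). The other beta chains that alpha v can take overlapped too. Itgb1, the beta chain of most collagen and laminin receptors, differed by −0.12 (95% interval −0.56 to 0.33). Itgb5, of a further vitronectin receptor, differed by −0.15 (−0.55 to 0.25). Itgb6 and Itgb8, whose receptors bind and activate latent TGF-beta, differed by −0.05 (−0.63 to 0.54) and 0.20 (−0.37 to 0.76). Itgb6 was lowest in knockout tumour 1, and without that tumour the difference was 0.18. None of these 6 genes passed in limma (adjusted p 0.862 to 0.988), and the interval of Itgb8 reaches 0.76.

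**Figure D1:**
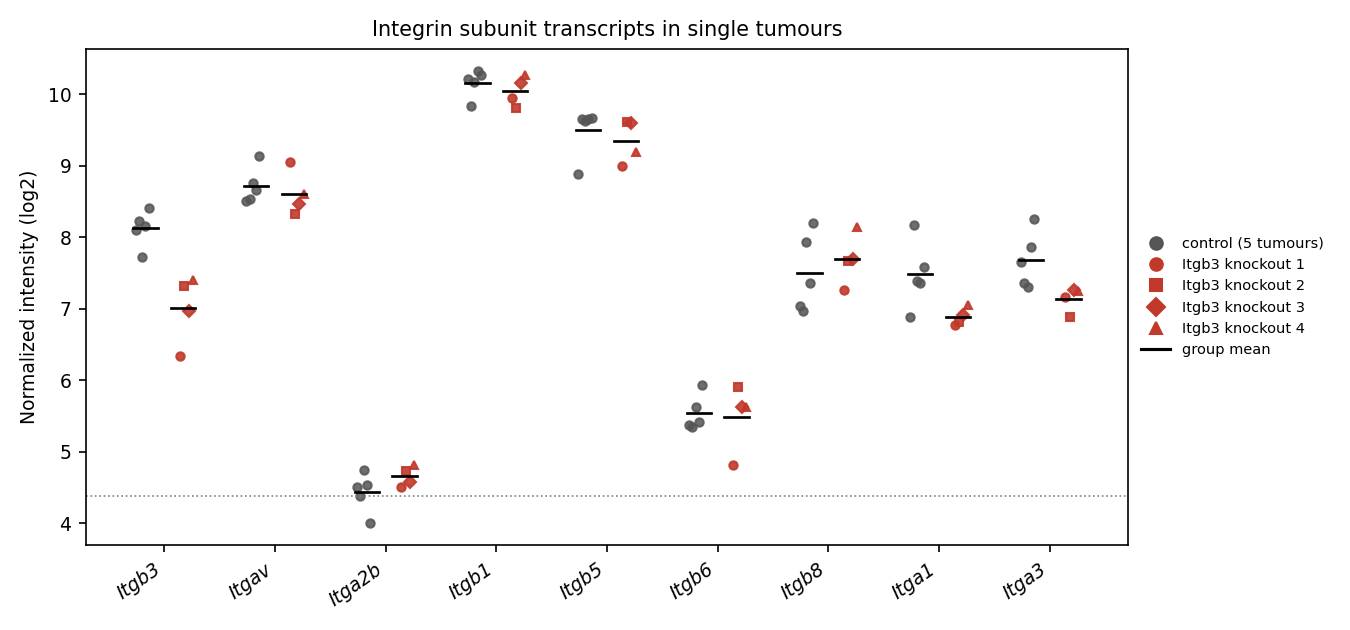
Normalized log2 intensity (vertical axis) of 9 integrin subunit genes in each of 4 Itgb3 knockout tumours (red, 1 symbol per tumour) and 5 control tumours (grey), with group means as bars and the intensity filter of 4.38 as a dotted line. The groups separate for Itgb3 (6.34 to 7.40 against 7.72 to 8.41) and for Itga3 (6.89 to 7.26 against 7.30 to 8.26) and overlap for the other 7 genes.

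Among the other integrin subunits, 17 of 19 listed genes were measured and 2 had an unadjusted p under 0.05, both lower. Over all 14231 genes, 399 (2.80%) were lower and 475 (3.34%) were higher at that level. Itga3, the alpha chain of a laminin receptor of epithelial cells, was 7.16, 6.89, 7.26 and 7.25 in the knockouts and 7.65, 7.36, 7.30, 7.86 and 8.26 in the controls. All 4 knockouts lay below every control (−0.55, SE 0.233), as did 167 of all genes tested (1.17%). Itga1, the alpha chain of a collagen receptor, was 6.78, 6.81, 6.91 and 7.05 against 6.88, 8.17, 7.39, 7.37 and 7.58, and control tumour 1 lay within the knockout range (−0.59, SE 0.241). The leukocyte chains Itgax and Itgam differed by −0.53 and −0.39. Neither Itga3 nor Itga1 passed (limma adjusted p 0.796 for both).

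Across the genome no gene passed at an adjusted p of 0.05 (0 of 14231 in either direction, 0%, smallest limma adjusted p 0.723). At an unadjusted p under 0.05 there were 874 genes (6.14%). All 4 knockouts lay above every control for 167 genes (1.17%) and below every control for a further 167 (1.17%). They lay above all 15 other tumours for 20 genes (0.141%) and below them for 22 (0.155%). The median difference over all genes was −0.01, 47.6% of genes lay above 0, and 28 genes differed by more than 1 upwards and 12 downwards. For 93.9% of genes the 95% interval lay within 1 on either side of 0. The median SD was 0.181 in the knockouts and 0.256 in the controls.

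The split between higher and lower genes moved with centring of the arrays, the filter and single tumours, and little with quantile normalization. Of the 874 genes, 54.3% were higher with the deposited values. The median over the 14231 genes was 6.45 to 6.52 in the knockouts and 6.49 to 6.58 in the controls. Centring each array on that median raised the median difference by 0.04. The counts were then 727 higher and 223 lower, and 76.5% were higher. With quantile normalization they were 431 higher and 348 lower, and 55.3% were higher. With a stricter filter, 1 log2 unit higher, they were 198 higher and 350 lower, and 36.1% were higher. Leaving out 1 tumour gave 49.9% (without knockout tumour 3) to 61.9% (without knockout tumour 1, where the lower count was 248), and 60.7% without control tumour 2. Genes near the intensity filter made up much of the higher side: 277 of the 475 higher genes had a mean level under 5.38, against 47 of the 399 lower genes.

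**Figure D2:**
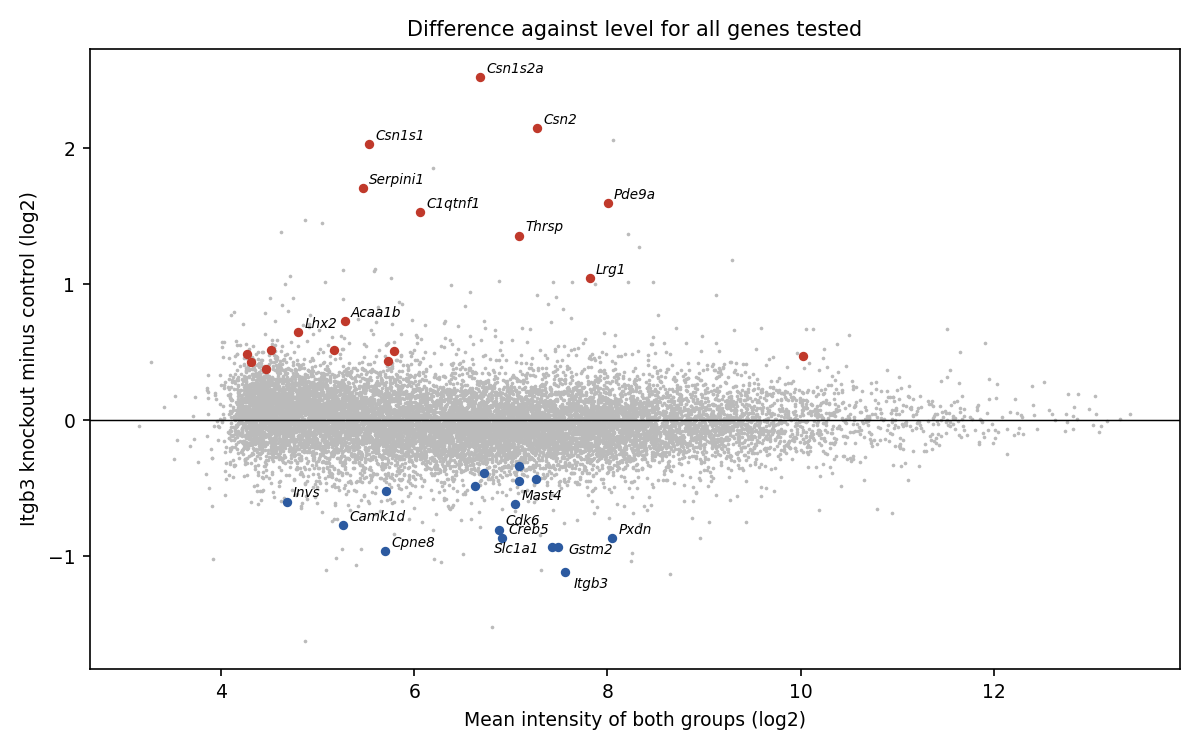
Difference between the mean of 4 Itgb3 knockout and 5 control tumours (vertical axis, log2) against the mean intensity of both groups (horizontal axis, log2) for 14231 genes (grey). The 18 leading higher (red) and 16 leading lower genes (blue), chosen by smallest p or by size, are coloured, and those beyond 0.55 are named: caseins reach 2.53 and Itgb3 lies at −1.12.

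The higher genes with the smallest p mostly lay near the intensity filter. Lhx2, a LIM homeobox transcription factor of forebrain, eye and hair follicle progenitors, led them. Its level was 4.99, 5.11, 5.05 and 5.34 in the knockouts and 4.38, 4.41, 4.43, 4.65 and 4.51 in the controls (0.65, SE 0.125). All 4 knockouts lay above all 15 other tumours, whose highest value was 4.96. The same held for the inward rectifier potassium channel gene Kcnj14 (0.52, SE 0.120) and for Nphs1, which encodes the kidney slit diaphragm protein nephrin (0.51, SE 0.131), although 2 controls of Nphs1 lay under the filter (0.35 with values raised to it). The peroxisomal thiolase gene Acaa1b was 5.56, 6.14, 5.21 and 5.66 against 4.97, 4.76, 4.72, 5.01 and 5.12 (0.73, SE 0.169). Psma7, a core subunit of the proteasome, lay far above the filter. It was 10.43, 10.43, 9.94 and 10.26 against 9.69, 9.89, 9.83, 9.85 and 9.69, with no overlap (0.48, SE 0.118). The centrosome gene Cep112 (0.51) and the neurexophilin gene Nxph3 (0.44) were also higher in every knockout than in every control. The organic anion transporter gene Slc22a6 (0.43) and the transcription factor genes Scrt2 (0.38) and Pou4f3 (0.49) lay so low that 5, 3 and 5 of the controls were under the filter. With values raised to it these differences were 0.16, 0.24 and 0.17. The limma adjusted p was 0.723 for each of the 10. The labelled double knockouts also differed from controls by 0.64 for Acaa1b and 0.60 for Cep112. For the rest of the 10 they differed by −0.15 (Lhx2) to 0.27 (Pou4f3).

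The lower genes with the smallest p mostly lay well above the filter. Mast4, a microtubule-associated serine/threonine kinase, was 6.78, 6.64, 6.75 and 6.77 in the knockouts and 7.49, 7.54, 7.09, 7.32 and 7.34 in the controls (−0.62, SE 0.131). All 4 knockouts lay below all 15 other tumours, as they did for the HEAT repeat gene Heatr5b (−0.34, SE 0.086). Cdk6, the kinase that with D cyclins drives the entry into S phase, was 6.46, 6.59, 6.67 and 6.17 against 7.30, 7.58, 6.85, 7.14 and 7.52, with no overlap (−0.80, SE 0.205). Its means were likewise 6.44 and 6.46 in the Itgb1 knockouts and the labelled double knockouts. Hif1an, the asparagine hydroxylase that restrains HIF1A, was 6.56, 6.37, 6.33 and 6.27 against 6.57, 6.96, 6.99, 6.79 and 7.03 (−0.49, SE 0.121), with the nearest tumours at 6.56 and 6.57. The neuroligin gene Nlgn2 (−0.52), the stress kinase gene Map3k4 (−0.44), Rubcn, which encodes the autophagy inhibitor rubicon (−0.39), and the cilium gene Invs (−0.60) were lower in every knockout than in every control. For Invs 2 knockouts lay under the filter, and with values raised to it the difference was −0.47. Ciz1, which encodes a nuclear zinc finger protein of DNA replication, was lower in 3 of 4 (−0.45). None of them passed (limma adjusted p 0.723 to 0.750). Against controls, the Itgb1 knockouts and the labelled double knockouts differed by −0.33 and −0.19 for Map3k4. In the same order Rubcn stood at −0.25 and −0.14, Invs at −0.36 and −0.26 and Nlgn2 at −0.41 and 0.03. Heatr5b stood at −0.17 and 0.09, Mast4 at −0.10 and −0.21, Hif1an at −0.04 and −0.09 and Ciz1 at −0.08 and −0.08.

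Of the named genes, 3 casein genes had the largest differences. Caseins are the major proteins of milk, and their genes are switched on in alveolar mammary epithelium by prolactin through STAT5, together with glucocorticoids and contact with basement membrane. Csn1s2a was 9.28, 7.37, 7.58 and 7.56 in the knockouts and 5.97, 5.11, 5.30, 4.94 and 5.79 in the controls. Each knockout lay above each control, with knockout tumour 1 the highest (2.53, SE 0.699, 5.76-fold). Csn1s1 was 7.56, 4.87, 7.59 and 6.16 against 4.64, 3.54, 4.85, 3.76 and 5.79, and Csn2 was 10.05, 6.13, 8.48 and 8.70 against 6.29, 5.45, 6.18, 5.21 and 7.85. In both, knockout tumours 1, 3 and 4 lay above every control and knockout tumour 2 lay among them (2.03, SE 0.632, and 2.15, SE 0.983). Of the Csn1s1 controls 2 lay under the filter, and with values raised to it that difference was 1.74. None of the 3 casein genes passed (limma adjusted p 0.750, 0.791 and 0.805). Without knockout tumour 1 the Csn1s2a difference was 2.08 and the Csn2 difference 1.58. In the labelled double knockouts Csn1s2a reached 7.88 and Csn2 reached 9.84, and in the Itgb1 knockouts Csn2 reached 8.40. For these 2 genes the Itgb3 knockout range was thus not beyond the other genotypes.

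The promoters of these 3 genes are shown because the genes were high in mostly the same tumours and because STAT5 acts on casein promoters. The 150 bases before each start site were taken from RefSeq (GRCm38.p6), where all 3 lie on chromosome 5, at chr5:87774300-87774449 (plus strand) for Csn1s2a, chr5:87666058-87666207 (plus strand) for Csn1s1 and chr5:87699426-87699575 (minus strand) for Csn2. Capitals mark the STAT-type palindrome TTCNNNGAA, which reads alike on both strands and was the 1 motif searched.
Csn1s2a: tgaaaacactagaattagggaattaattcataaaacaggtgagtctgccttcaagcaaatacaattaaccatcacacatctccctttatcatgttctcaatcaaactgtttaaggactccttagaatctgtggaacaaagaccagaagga
Csn1s1: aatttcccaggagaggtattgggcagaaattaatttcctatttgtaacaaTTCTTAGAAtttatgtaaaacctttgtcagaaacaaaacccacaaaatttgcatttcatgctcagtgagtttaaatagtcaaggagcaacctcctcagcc
Csn2: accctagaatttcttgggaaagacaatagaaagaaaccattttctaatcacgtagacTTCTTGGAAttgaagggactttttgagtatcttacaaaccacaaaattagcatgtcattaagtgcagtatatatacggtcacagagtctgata
The motif starts at −100 from the start site in Csn1s1 and at −93 in Csn2, and these letters are not in the window of Csn1s2a. Of 32851 mouse promoters of the same length, 1344 (4.09%) hold it. A match is a description of the letters and shows no binding.

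Other milk genes had smaller differences than these caseins. Csn3, which encodes the casein that coats the micelle, was high in both groups, at 12.46, 12.62, 12.25 and 12.51 in the knockouts and 12.66, 12.21, 12.22, 12.44 and 12.22 in the controls (0.11, 95% interval −0.13 to 0.35). Lalba, the lactose synthase subunit alpha-lactalbumin, ranged from 10.68 to 12.37 and from 10.13 to 12.82 (0.51, SE 0.941). Wap, whey acidic protein, lay at the filter in both (0.20). These 3 genes and the iodide transporter gene Slc5a5 were chosen after their values were seen. Fabp3, a fatty acid binding protein of the lactating gland, was 9.90, 9.97, 9.96 and 9.93 against 9.88, 9.63, 9.34, 9.78 and 8.76, and the knockouts lay above all 15 other tumours (0.46, SE 0.174; 0.28 without control tumour 5). The folate receptor gene Folr1 was 0.47 higher (SE 0.185) with overlap, and Slc5a5 was 0.17 higher (SE 0.099) with none. Of 25 listed milk protein and secretory genes 21 were measured, 16 of them above 0, 3 above every control in all 4 knockouts and 5 at an unadjusted p under 0.05, all higher. Over all genes 47.6% lay above 0, 1.17% lay above every control and 3.34% were higher at that level. The list median was 0.35, against −0.01 over all genes, and it was 0.30, 0.48, 0.38 and 0.06 in single knockouts against −0.31 to 0.22 in single controls. Knockout tumour 4 thus lay within the control range. Against controls, the list median was 0.23 in the Itgb1 knockouts and 0.08 in the labelled double knockouts.

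**Figure D3:**
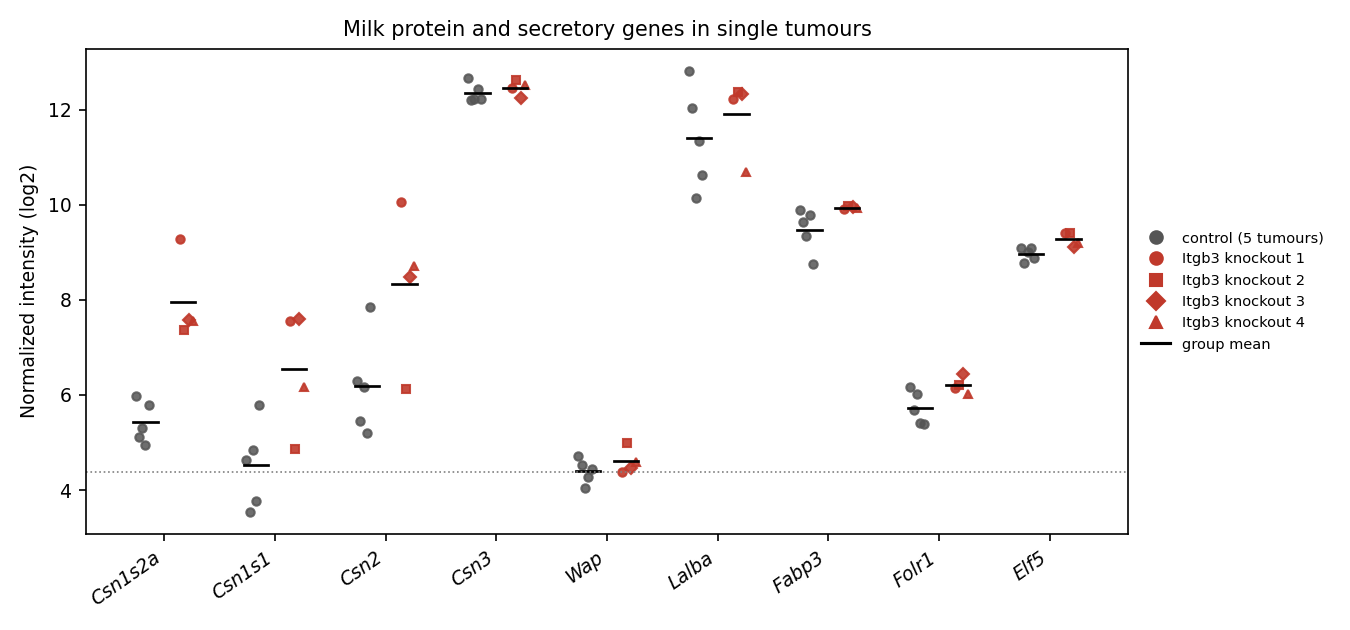
Normalized log2 intensity (vertical axis) of 9 milk protein, secretory and alveolar genes in each of 4 Itgb3 knockout (red, 1 symbol per tumour) and 5 control tumours (grey), with group means as bars and the filter of 4.38 as a dotted line. Csn1s2a, Fabp3 and Elf5 do not overlap between the groups, knockout tumour 2 lies among the controls for Csn1s1 and Csn2, and Csn3, Wap and Lalba overlap.

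Genes of the prolactin pathway differed less than the caseins. Elf5, the transcription factor of alveolar progenitors, was 9.40, 9.41, 9.11 and 9.21 in the knockouts and 9.09, 8.78, 9.01, 9.09 and 8.87 in the controls, with no overlap (0.31, SE 0.184). Id2, needed for alveolar growth, was 11.15, 11.27, 11.21 and 11.08 against 10.94, 10.73, 11.24, 10.80 and 10.61, with overlap only through control tumour 3 (0.32, SE 0.128). Cebpb, a regulator of ductal and alveolar differentiation, was 0.34 higher (SE 0.159) and Igf2, a growth factor induced by prolactin, 0.29 higher (SE 0.126). Igf2 lay at the filter, with 3 controls and 1 knockout under it, and was 0.15 higher with values raised to it. The STAT5 target and feedback inhibitor gene Cish was 0.32 lower in mean, at 5.48, 5.73, 5.26 and 5.56 against 5.77, 5.60, 6.42, 5.60 and 5.72, and 0.17 lower without control tumour 3. Stat5a and its kinase gene Jak2, named after their values were seen, differed by 0.17 (SE 0.294) and −0.15 (SE 0.124). Of 15 measured genes of the list 11 were above 0 and 3 had an unadjusted p under 0.05, all higher, and the median was 0.08 (0.00 without knockout tumour 2). Over all genes 47.6% lay above 0 and 3.34% were higher at that level. Of 18 luminal markers 8 were above 0 and none had an unadjusted p under 0.05. Their median was −0.02, with the keratin genes Krt8 and Krt18 at −0.25 and −0.21 and the E-cadherin gene Cdh1 at −0.23. The basal and myoepithelial list had 1 of 11 genes above 0 and a median of −0.15.

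Beyond the caseins, 5 genes led the higher side by size. Pde9a, a phosphodiesterase that breaks down cyclic GMP, was 9.03, 8.50, 8.49 and 9.18 in the knockouts and 7.40, 7.40, 6.59, 7.42 and 7.21 in the controls. The gap between the groups was wider than the range of either (1.60, SE 0.515, 3.02-fold), and the highest labelled double knockout reached 9.31. C1qtnf1, a secreted C1q and TNF related protein, was 6.62, 7.11, 6.10 and 7.47 against 4.58, 4.85, 6.11, 5.81 and 5.11 (1.53, SE 0.564). Thrsp, a lipogenesis gene of liver, fat and mammary gland, was 7.51, 9.07, 7.89 and 6.60 against 6.31, 5.94, 6.23, 7.14 and 6.40 (1.36, SE 0.535). For C1qtnf1 and Thrsp, 3 of 4 knockouts lay above every control. The neuroserpin gene Serpini1 was 1.71 higher (SE 0.629), with 4 controls at 3.87 to 4.68 and control tumour 4 at 6.67. Of its controls 3 lay under the filter, and its difference was 1.42 with values raised to it. Lrg1, a secreted leucine-rich glycoprotein of inflammation and vessels, was 1.04 higher (SE 0.388) and highest in knockout tumour 1, at 9.43. Without that tumour its difference was 0.68. Serpini1 also differed from controls by 2.42 in the Itgb1 knockouts and by −0.29 in the labelled double knockouts. In the same order Thrsp stood at 0.99 and −0.32 and C1qtnf1 at 0.67 and 2.27. Pde9a stood at 0.74 and 0.36, and Lrg1 at 0.13 and 0.53. Of 18 measured fatty acid synthesis genes, Thrsp was the 1 with an unadjusted p under 0.05, and the list median was −0.01. At that level 3.34% of all genes were higher.

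Among the 8 lower genes named by size, Itgb3 was the 1 with a difference beyond 1. Slc1a1, a glutamate and cysteine transporter, was 7.38, 6.93, 6.71 and 6.82 in the knockouts and 7.85, 7.63, 7.23, 8.59 and 8.16 in the controls (−0.93, SE 0.437). Creb5, a transcription factor that binds cyclic AMP response elements, was 6.04, 6.56, 6.78 and 6.52 against 6.90, 7.31, 6.62, 8.30 and 7.58 (−0.87, SE 0.393). In each, 3 of 4 knockouts lay below every control. Pxdn, the peroxidase that cross-links collagen IV in basement membrane, was 7.65, 7.34, 7.68 and 7.80 against 8.25, 9.86, 7.40, 8.88 and 8.03 (−0.87, SE 0.381). Its spread lay in the controls, and without control tumour 2 the difference was −0.52. The copine gene Cpne8 (−0.96), the glutathione transferase gene Gstm2 (−0.94) and the kinase gene Camk1d (−0.77) completed the 8. For Camk1d control tumour 2 stood at 7.24 against 4.95 to 5.57 in the other controls, and without it the difference was −0.37. Gstm2 was lowest in knockout tumour 2, at 5.91, and without that tumour its difference was −0.57. Against controls, Gstm2 differed by −0.97 in the Itgb1 knockouts and −1.05 in the labelled double knockouts. In the same order Slc1a1 stood at −1.33 and −0.69, Pxdn at −0.32 and −0.70 and Camk1d at −0.51 and −0.33. Cpne8 stood at −0.71 and 0.40, and Creb5 at −0.42 and 0.15.

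The ligands of alpha v beta3 showed no shared direction. Of 23 listed RGD ligands 17 were measured, 9 were above 0 and none had an unadjusted p under 0.05, with a median of 0.01. Fibronectin, Fn1, was 9.01, 5.93, 9.41 and 7.99 in the knockouts and 9.16, 8.83, 8.77, 9.97 and 9.34 in the controls (−1.13, SE 0.544). Knockout tumour 2 set much of that, and without it the difference was −0.41. Periostin, Postn, a matrix protein of fibroblasts, was likewise 6.04 in that tumour and 8.32 to 9.49 in the other knockouts, and its difference of −0.62 became 0.08 without it. Vitronectin, Vtn, differed by 0.23 (SE 0.180) and the matricellular gene Ccn2 by −0.30 (SE 0.241).

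Interstitial matrix genes had the lowest median of all 39 lists, and its size turned on single tumours. Of 27 measured genes 4 were above 0 and none had an unadjusted p under 0.05. The median was −0.40, against −0.01 over all genes, −0.02 without knockout tumour 2 and −0.62 without knockout tumour 3. In single tumours it was −0.36, −1.15, 0.37 and −0.37 in the knockouts and −0.17, −0.10, −0.14, 0.42 and 0.11 in the controls. Knockout tumours 1, 2 and 4 lay below every control, knockout tumour 2 by far the most, and knockout tumour 3 was high. The type I collagen genes Col1a1 and Col1a2 were 5.96 and 5.59 in knockout tumour 2, and their differences of −0.68 and −0.66 were −0.17 and −0.15 without it. Biglycan, Bgn, was 8.93 in that tumour and 10.69 to 11.40 in the other knockouts. The fibroblast markers lay low and high in the same tumours, with medians of −0.30, −0.87, 0.37 and −0.37 in the knockouts and −0.29 to 0.44 in the controls. They share 7 of 17 genes with the matrix list, and over the other 10 the knockout medians were −0.11, −0.23, 0.26 and 0.00, within the control range of −0.36 to 0.33. None of these 17 markers had an unadjusted p under 0.05, and their part in the matrix values was not tested. Fbln2, a fibulin of elastic fibres and basement membrane, was 0.53 lower (SE 0.272), and Col5a3, a minor fibrillar collagen chain, 0.26 higher (SE 0.125).

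Basement membrane genes overlapped between the groups. Of 19 measured genes 4 were above 0 and 3 had an unadjusted p under 0.05, all lower, and the median was −0.16 (−0.09 without knockout tumour 2). In single tumours it was −0.10, −0.31, −0.21 and −0.07 in the knockouts and −0.06, −0.14, −0.25, 0.18 and 0.17 in the controls. Over all genes 47.6% lay above 0 and 2.80% were lower at an unadjusted p under 0.05. The laminin chain gene Lamb1 was 6.30, 5.55, 5.97 and 6.23 in the knockouts and 6.41, 7.02, 6.17, 6.89 and 6.51 in the controls (−0.59, SE 0.176). Control tumour 3 lay within the knockout range. The nidogen genes Nid2 and Nid1, whose products link laminin to collagen IV, differed by −0.39 (SE 0.170) and −0.50 (SE 0.227), and the collagen IV chain gene Col4a2 by −0.42 (SE 0.201). None passed (limma adjusted p 0.791 to 0.808). Among 24 measured matrix proteases and inhibitors 6 were above 0, with a median of −0.15 (−0.01 without knockout tumour 2). Adam17, the sheddase of several ErbB ligands, was 0.30 lower (SE 0.119). Adamts1, a protease of proteoglycans, was 4.96, 4.86, 4.97 and 4.94 against 5.05, 4.999, 5.21, 5.39 and 5.58, below every control and all other tumours (−0.31, SE 0.213).

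Genes of the adhesion site inside the cell had a median slightly below 0, and the groups met at control tumour 3. Of 31 measured focal adhesion genes 6 were above 0 and 2 had an unadjusted p under 0.05, both lower. The median was −0.12, at −0.15, −0.10, −0.09 and −0.07 in single knockouts and −0.09 to 0.10 in single controls, so that knockout tumour 4 lay above the lowest control. After centring of the arrays it was −0.08. Over all genes 47.6% lay above 0 and 2.80% were lower at an unadjusted p under 0.05. The actin cross-linker gene Actn1 was 8.71, 8.76, 9.05 and 8.95 in the knockouts and 9.26, 9.22, 8.78, 9.43 and 9.68 in the controls (−0.41, SE 0.136). Rsu1, a partner of the integrin-linked kinase complex, differed by −0.28 (SE 0.123). Paxillin, Pxn, differed by −0.26, vinculin, Vcl, by −0.44 (−0.25 without control tumour 5) and the focal adhesion kinase relative Ptk2b by −0.44. The genes for integrin activation and binding to integrin tails showed 8 of 20 above 0, none at an unadjusted p under 0.05, and a median of −0.04. There the talin gene Tln1 differed by −0.26 (SE 0.187), the kindlin of blood cells, Fermt3, by −0.29 (SE 0.162), the endocytic adaptor gene Dab2 by −0.30 (SE 0.205) and the phosphatase gene Ptpn1 by 0.19 (SE 0.130).

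Marker levels of endothelium and platelets, known sites of beta3 expression, overlapped between the groups. Of 23 measured endothelial markers 8 were above 0 and the median was −0.04, with medians of −0.13 to 0.03 in single knockouts and −0.21 to 0.27 in single controls. The vascular phosphatase gene Ptprb was 4.98, 5.22, 5.43 and 4.92 against 5.49, 5.62, 6.16, 5.74 and 5.29, the 1 of the list with an unadjusted p under 0.05 (−0.52, SE 0.205). At that level 2.80% of all genes were lower. The VEGF receptor genes Flt1 and Kdr differed by −0.26 and −0.28. Of 14 platelet and megakaryocyte markers 8 were measured, 4 of them above 0, with a median of 0.03. The platelet genes Gp9 and Treml1 differed by 0.26 (SE 0.154) and 0.19 (SE 0.124). How far such cells set the Itgb3 level that remained was not tested.

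Leukocyte lists had medians of −0.17 to 0.10. Of 21 measured macrophage markers 4 were above 0 and none had an unadjusted p under 0.05, with a median of −0.17 (−0.05 without control tumour 4). In single tumours it was −0.22 to −0.04 in the knockouts and −0.45 to 0.31 in the controls, with overlap. The colony stimulating factor receptor gene Csf1r was 7.08, 7.33, 7.75 and 7.17 in the knockouts and 7.28, 7.81, 8.42, 7.85 and 7.56 in the controls (−0.45, SE 0.247). Adgre1 and Mpeg1 differed by −0.35 and −0.40, and the lipopolysaccharide co-receptor gene Cd14 by 0.40 (SE 0.254). Of 10 measured T and NK cell markers only Cd8b1, a chain of the CD8 co-receptor, separated the groups, at 4.74, 5.16, 4.58 and 4.75 against 4.07, 4.51, 4.41, 4.14 and 4.09 (0.56, SE 0.169). All 4 knockouts lay above every control for 1.17% of all genes. Cd8b1 lay near the filter, with 3 controls under it, and was 0.39 higher with values raised to the filter. Ccr7, the homing receptor of dendritic and T cells, was 5.52, 5.46, 5.48 and 5.45 against 5.13, 5.12, 4.87, 5.35 and 5.03, with no overlap (0.38, SE 0.210). The dendritic cell and MHC class II list had a median of −0.05.

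Interferon response genes varied more between single tumours than between the Itgb3 knockout and control groups. Of 25 measured genes 2 were above 0 and none had an unadjusted p under 0.05, with a median of −0.29. Single knockouts stood at 0.28, 0.29, −0.42 and −1.42 and single controls at −0.86, 0.97, 0.35, −0.29 and 0.00. Knockout tumour 4 was the lowest, and without it the median was −0.02. Against controls, the list median was −0.33 in the Itgb1 knockouts and −1.41 in the labelled double knockouts. The interferon-induced apoptosis gene Xaf1 was 8.52, 8.40, 7.71 and 6.79 against 7.54, 9.23, 8.86, 8.24 and 8.58 (−0.63, SE 0.457). Irf9, part of the interferon-activated transcription factor, and Ifit3, an antiviral protein gene, differed by −0.42 and −0.35.

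**Figure D4:**
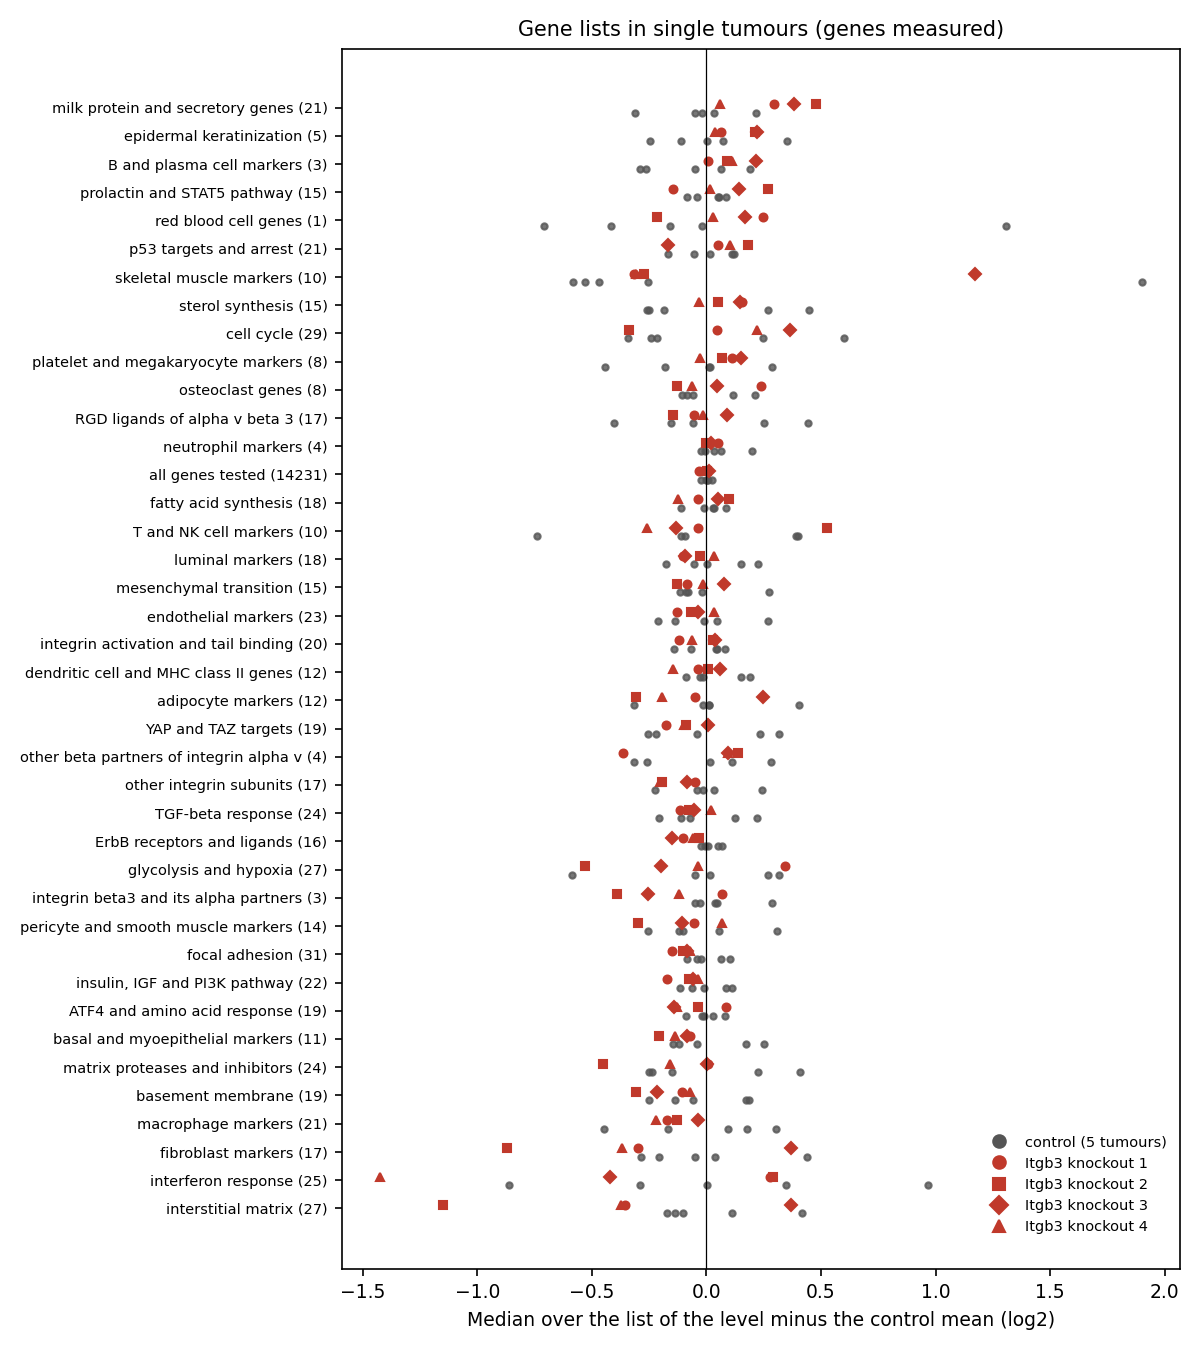
Median over each gene list of the log2 level minus the control mean (horizontal axis) in each of 4 Itgb3 knockout tumours (red, 1 symbol per tumour) and 5 control tumours (grey), for 39 lists and all genes tested, sorted by the median difference, with the number of genes measured. Milk and secretory genes have the highest median difference (0.35) and interstitial matrix genes the lowest (−0.40), where knockout tumour 2 stands at −1.15.

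The oncogene's level overlapped between the groups, and the lists of its pathway had medians slightly below 0. Erbb2 was 9.77, 9.9993, 9.55 and 9.56 in the knockouts and 9.47, 10.28, 9.85, 10.01 and 9.62 in the controls, with overlap (−0.13, 95% interval −0.53 to 0.27). Whether its probe set also reads the transgene is not given. Of 16 measured ErbB receptors, ligands and adaptors 6 were above 0, 1 was higher and 1 lower at an unadjusted p under 0.05, and the median was −0.10. It was −0.10, −0.03, −0.15 and −0.06 in single knockouts and −0.02 to 0.07 in single controls. At an unadjusted p under 0.05, 3.34% of all genes were higher and 2.80% lower. Erbb4, the neuregulin receptor that acts with STAT5 in lactation, was 6.82, 7.50, 7.11 and 6.94 against 7.02, 6.77, 6.43, 5.87 and 5.71 (0.73, SE 0.292). Tgfa, a ligand of EGFR, was 6.94, 6.66, 6.41 and 6.53 against 6.98, 6.997, 7.27, 6.49 and 7.52 (−0.42, SE 0.194). The EGFR ligand gene Hbegf and the adaptor gene Grb7 differed by −0.48 (−0.24 without knockout tumour 2) and −0.25. In the insulin, IGF and PI3K list 6 of 22 genes were above 0, with a median of −0.12, at −0.17 to −0.04 in single knockouts and −0.11 to 0.11 in single controls. There the catalytic subunit gene Pik3cb was 8.11, 8.04, 7.88 and 8.13 against 8.39, 8.21, 8.51, 8.17 and 8.30, with no overlap (−0.28, SE 0.115). The IGF binding protein gene Igfbp5, which rises at the end of lactation, was 11.75 to 11.99 against 9.87 to 11.80 (0.67, SE 0.422), with control tumour 2 the lowest (0.35 without it).

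Proliferation, stress and metabolism lists lay near the median of all genes. Of 29 measured cell cycle genes 19 were above 0 and the median was 0.05. The mitotic kinase gene Aurka was 8.38, 7.60, 8.11 and 8.25 in the knockouts and 8.20, 7.74, 7.28, 7.24 and 7.68 in the controls (0.46, SE 0.213), the 1 of this list with an unadjusted p under 0.05. At that level 3.34% of all genes were higher. Bub1 and Pcna differed by 0.36 and 0.22. Glycolysis and hypoxia genes had 8 of 27 above 0 and a median of −0.11, with Hk2, the first enzyme of glycolysis in many tumours, at −0.33 (SE 0.224). Of 15 measured mesenchymal transition genes the growth factor gene Tgfb2 was 0.64 higher (SE 0.304) and the list median was −0.03. None of the lists of YAP and TAZ targets (−0.08), TGF-beta response (−0.09), sterol synthesis (0.05), ATF4 response (−0.13) or p53 targets (0.06) had a median beyond 0.13 from 0.

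The chromosome around Itgb3 was examined because a floxed allele can carry linked sequence from the strain it was made in. Of the 25 genes on each side in the RefSeq order of chromosome 11, 18 of 50 were measured, 7 of them above 0. Their median difference was −0.03, with a range of −0.40 to 0.37, and 1 of them, known only by a clone name, lay below every control. All 4 knockouts lay below every control for 1.17% of all genes. The nearest measured neighbours, the myosin light chain gene Myl4 and the methyltransferase gene Mettl2, differed by 0.37 and −0.16. At an unadjusted p under 0.05 the gene with the clone name was lower. At that level 1 neighbour was higher, the cytochrome b561 gene Cyb561 (0.35), which was named after its values were seen. Of all genes, 2.80% were lower and 3.34% higher at that level.

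The same floxed gene separates the labelled double knockouts from the Itgb1 knockouts, and these 2 groups share no tumour with the Itgb3 knockouts or the controls. In that pair Itgb3 differed by only −0.10 (SE 0.244), so it is no repeat of a measured Itgb3 loss. The difference of the contrasts for Itgb3 was 1.01 (SE 0.352, limma adjusted p 0.271). No gene passed for the difference of the contrasts (0 of 14231), and 1777 (12.5%) had an unadjusted p under 0.05. Across genes the 2 contrasts correlated at r = −0.17, where genes are not independent replicates. In each pair of values below the first is Itgb3 knockout minus control and the second labelled double knockout minus Itgb1 knockout. Lhx2, Nlgn2, Lamb1, Serpini1, Csn1s2a, Erbb4 and C1qtnf1 were named by p or size in the first contrast. The difference of the contrasts holds that same first value, so its size is partly set by this choice. Lhx2 was 0.65 higher in the first and 0.35 lower in the second (difference −0.99, limma adjusted p 0.096). Nlgn2 was 0.52 lower and 0.44 higher (0.95, adjusted p 0.096), and Lamb1 0.59 lower and 0.58 higher (1.17, adjusted p 0.096). Serpini1 had the largest such value among the genes named here (−4.41, SE 0.873, adjusted p 0.096), at 1.71 and −2.70, followed by Csn1s2a (−2.95, adjusted p 0.253). Erbb4 stood at 0.73 and −1.24 (−1.97, adjusted p 0.096). Against controls, the Itgb1 knockouts and the labelled double knockouts differed by −0.41 and 0.03 for Nlgn2 and by −0.31 and 0.28 for Lamb1. These values were 2.42 and −0.29 for Serpini1 and 0.88 and −0.36 for Erbb4. For Lhx2 they were 0.19 and −0.15, and for Csn1s2a 0.93 and 0.51. C1qtnf1 stood at 1.53 and 1.60, with a difference of 0.06 (SE 0.783). With array weights Lhx2, Nlgn2 and Tnfrsf1b passed (3 genes). Without control tumour 2, Heatr5a, Snord123, Tnfrsf1b, Nlgn2 and Plekhh2 passed (5 genes), and without knockout tumour 3, Prcp passed (1 gene). Of these, Tnfrsf1b, Heatr5a, Snord123, Plekhh2 and Prcp were named after their values were seen.

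**Figure D5:**
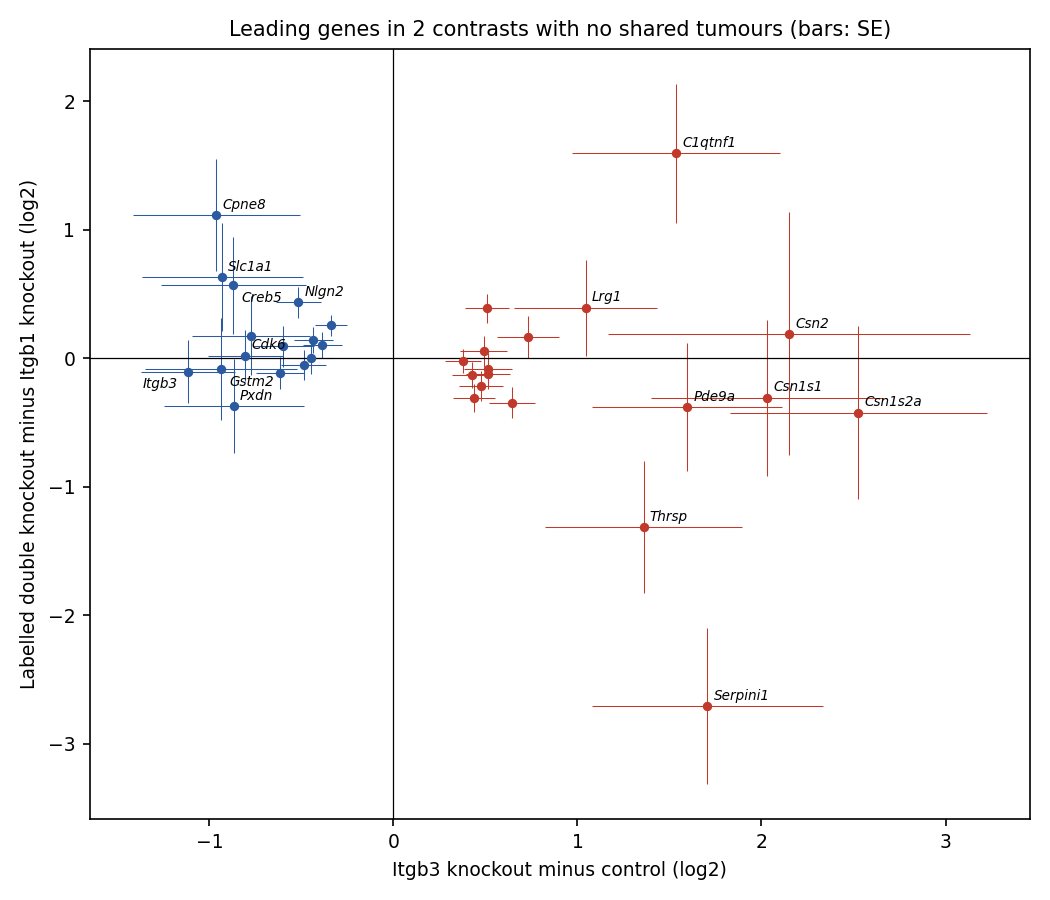
Difference of labelled double knockout minus Itgb1 knockout (vertical axis, log2) against Itgb3 knockout minus control (horizontal axis, log2) for the 34 leading genes, with SE bars; red genes were higher and blue genes lower in the Itgb3 knockouts. C1qtnf1 lies at 1.53 and 1.60, Serpini1 at 1.71 and −2.70, and Itgb3 at −1.12 and −0.10.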

How the data were processed

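The series measured total RNA of 19 mouse mammary tumours on a whole-transcript array, 1 array per tumour. The deposited table holds the authors' log2 intensities for 41345 probe sets, and per the submitters' processing notes the normalization tool was Affymetrix Expression Console, with no version stated. How background was corrected and probes were summarized is not given in the sources used here. No batch or scan date was used. The deposited values were taken with no further normalization.

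Groups follow the genotype label. Probe sets with exactly 1 gene symbol in the platform annotation were kept (23521, against 1814 with several and 16010 with none), where at least 4 arrays reached the table median of 4.38. Of several probe sets per gene the one with the highest mean was taken, which left 14231 genes. A single limma 3.58.1 fit (lmFit and eBayes, R 4.3.3) of all 19 arrays estimated 1 mean for each genotype with no further terms, leaving 15 residual degrees of freedom (18.7 moderated). Tests were two-sided, adjusted by Benjamini-Hochberg over all genes, with a threshold of 0.05. The fit was tested on simulated data. Itgb3 was also compared by an exact permutation test. The number of arrays limits the precision.

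Named genes are Itgb3 with its partners and Erbb2, the 10 higher and 10 lower genes with the smallest p, the 8 highest and 8 lowest differences at an unadjusted p under 0.05, up to 5 members with the smallest p per list described, and neighbours of Itgb3 that separate the groups. Predicted genes, small RNAs and receptor segments were counted and not named. Exceptions are marked where they occur, and Dcn, Acta1 and Epcam were chosen after their values were seen. The members were chosen by genotype alone, but earlier results of these data were known when they and the 39 gene lists were chosen. Lists are described by counts and medians with no test. The RefSeq table (GRCm38.p6) gave only gene order and promoter sequences. The closing section gives the effect of 19 alternative settings.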

Additional observations from a re-analysis of the deposited data

Results flagged for a closer look

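A probe set with no gene symbol in the platform annotation lay outside the gene comparison and was the 1 that passed when every probe set above the filter was tested. This probe set, 17359955, was 4.25, 4.41, 3.88 and 3.72 in the Itgb3 knockouts and 6.44, 6.21, 7.11, 5.60 and 6.86 in the controls, and the 15 other tumours ran from 5.60 to 7.23. The difference of the measured values was −2.38 (limma adjusted p 0.00141 over 22723 probe sets). In the knockouts 3 of 4 values lay under the filter of 4.38, so their level there is only a bound, and with values raised to the filter the probe set was at least 4.16-fold lower. It passed without each of the 9 tumours in turn (−2.59 to −2.21, largest adjusted p 0.0147). Its values were known when it was chosen, and the gene it reads is not named here.

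By Dixon's test, single tumours stood far from the rest of their group in 19 of 304 groups of values tested (6.25%). Chance alone marks about 1 in 20 independent groups. The groups tested include genes named after their values were seen, such as Acta1, and lists that hold named genes. The rates are therefore not strictly comparable. In knockout tumour 1, Csn1s2a was high at 9.28 (7.37 to 7.58 in the other knockouts) and Lrg1 was high at 9.43 (7.92 to 8.04). In the same tumour Ciz1 was high at 6.92 (6.83 to 6.84), and the median of the other beta partners of alpha v was low at −0.36 (0.09 to 0.14). In knockout tumour 2, Adam17 was low at 7.84 (8.15 to 8.17) and Hbegf was low at 5.05 (5.92 to 6.08). Knockout tumour 3 was high in Acta1 at 9.17 (5.91 to 6.10) and in the median of the skeletal muscle markers at 1.17 (−0.32 to −0.27). Knockout tumour 4 was low in Lalba at 10.68 (12.21 to 12.37).

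Among the controls, tumour 1 was low in Itgb5 at 8.89 (9.63 to 9.67). Control tumour 2 was high in Camk1d at 7.24 (4.95 to 5.57), in Acta1 at 9.97 (4.89 to 6.09) and in the skeletal muscle median at 1.90 (−0.58 to −0.26). Control tumour 3 was low in Pde9a at 6.59 (7.21 to 7.42) and in Krt18 at 10.98 (11.54 to 11.66), and high in Cish at 6.42 (5.60 to 5.77). Control tumour 4 was high in Serpini1 at 6.67 (3.87 to 4.68) and in the mesenchymal transition median at 0.28 (−0.12 to −0.02). Control tumour 5 was high in the median of Itgb3 and its alpha partners at 0.29 (−0.05 to 0.05).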

How the results depend on the processing

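Under 19 alternative settings the lower Itgb3 level kept its direction wherever it was evaluated, which left out the test of every probe set. It was −1.12 to −1.07 in those that kept every tumour and −1.25 to −0.89 when 1 tumour was left out. The count of 0 genes that passed held in all 19 settings except the test of every probe set, which gave 1. Counts at an unadjusted p under 0.05 moved more. Higher genes numbered 901 with no intensity filter, 198 with a stricter one, 727 after centring of the arrays and 933 over every probe set, and 372 to 598 when 1 tumour was left out. Lower genes numbered 223 after centring and 673 over every probe set, and 248 to 535 when 1 tumour was left out. Quantile normalization gave 431 higher and 348 lower. Genes that passed for the difference of the contrasts numbered 3 with array weights and 0 to 5 when 1 tumour was left out. The cause of these shifts was not tested, apart from the filters and the probe set count, which change the number of features. Of 1997 differences of 113 named genes over the settings 7 changed sign (in Acta1, Dcn, Itgb6, Postn and Stat5a) and 0 passed. The difference of 48 of the 113 named genes moved by over 1.5 times or changed sign when some single tumour was left out, among them 5 of the 54 with an unadjusted p under 0.05 (Lrg1, Gstm2, Pxdn, Camk1d and Fabp3). The medians of 20 of 39 lists changed sign when some single tumour was left out, and those of 5 after centring. The single-tumour checks of the unnamed probe set were chosen after seeing the data. No paired analysis was possible because replicate numbers only follow the order of the records.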
